A study of Mus musculus with 8 samples.

Results

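Cd33, Siglece, Ceacam1, Ceacam10, Cd177, Lilra6, Pilra, Clec7a, and Sema4a, 9 genes for surface or secreted proteins of myeloid cells, were described in sorted growth plate cells of mice given SAG or its vehicle DMSO. They are 9 of the 16536 genes in the count table and were chosen by name from the measured difference between SAG and DMSO in these same libraries, so their levels and fold changes are given as a description, with no test. All 9 were measured in every mouse and passed the filter on low counts. Each library is 1 mouse, with 4 mice given DMSO and 4 given SAG. SAG is an agonist of Smoothened, which relays the Hedgehog (Hh) signal at the cell membrane. All mice carried Pthrp-mCherry, a reporter that marks cells expressing Pthlh, the gene of PTHrP, and were injected i.p. once a day from P30 to P36 and sacrificed at P38. From 2 femoral growth plates per mouse, live mCherry+ cells that also stained for CD73 were sorted and sequenced as a bulk, and the study's methods name no gate on a leukocyte marker.

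Myeloid cells read their surroundings through receptors that either restrain or start their response. Siglecs such as CD33 and Siglec-E bind sialic acid on neighboring glycans, and Siglec-E, CEACAM1, and PILRα carry inhibitory tyrosine motifs (ITIMs) in their tails that recruit phosphatases such as SHP-1. Activating receptors of the leukocyte Ig-like type, such as LILRA6, instead pair with the ITAM adaptor FcRγ, and dectin-1, the product of Clec7a, binds β-glucans of fungi and signals through Syk and CARD9. CD177 is a GPI-anchored protein of neutrophils that interacts with PECAM1 and with the integrin Mac-1, CEACAM10 is a short secreted CEACAM, and SEMA4A is a class 4 semaphorin that binds plexins.

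The 9 genes lie on 4 chromosomes, and 6 of them lie on chromosome 7, which holds 8.54% of the genes in the table. In GRCm38, Cd177 (chr7:24743983-24760311, minus strand) and Ceacam10 (chr7:24777206-24784657, plus strand) are separated by 16894 bp and point away from each other. Ceacam1 (chr7:25461707-25477603) lies 677049 bp beyond Ceacam10. Cd33 (chr7:43524216-43544428) and Siglece (chr7:43651070-43660161) are separated by 106641 bp, and Lilra6 lies at chr7:3908280-3915503. Pilra (chr5:137821952-137836281) overlaps Zcwpw1 on the opposite strand, Sema4a lies at chr3:88435959-88461182, and Clec7a (chr6:129461591-129472779) is annotated in GENCODE M21 as a polymorphic pseudogene.

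The sequences just before the starts of Ceacam1 and Ceacam10 are shown first because they are near copies of each other. RefSeq (GRCm38.p6) gives the 250 bases before the start of all 9 genes. Where a gene has several starts, as Ceacam10 with 2, the most upstream was used. Aligned without gaps over 232 bases, Ceacam1 (chr7:25477644-25477875, minus strand) and Ceacam10 (chr7:24776935-24777166, plus strand) were identical at 222, or 95.7%. Over the whole windows 88.8% of bases matched in this pair, against 63.2% in the next and 52.8% in the lowest of the 36 pairs of members. Capitals mark the 10 positions at which the 2 sequences differ.
Ceacam1: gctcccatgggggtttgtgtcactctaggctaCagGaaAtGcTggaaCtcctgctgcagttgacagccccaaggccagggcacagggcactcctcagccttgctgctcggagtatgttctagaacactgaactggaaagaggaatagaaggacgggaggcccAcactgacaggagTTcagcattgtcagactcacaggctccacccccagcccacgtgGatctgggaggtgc
Ceacam10: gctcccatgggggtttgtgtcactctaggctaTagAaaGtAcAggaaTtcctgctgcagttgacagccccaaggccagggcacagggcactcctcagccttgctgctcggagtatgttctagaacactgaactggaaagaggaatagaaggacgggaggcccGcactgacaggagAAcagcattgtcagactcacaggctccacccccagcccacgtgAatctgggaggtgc

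The letters GAGGAA, the purine-rich core of sites bound by PU.1 and other ETS factors, were found on either strand in the windows of all 9 members. Of all 27025 windows 23.1% held these letters, of the windows of genes tested 22.8%, and of those of 314 other genes called higher with SAG 30.9%. Among 53 tested relatives of the members the share was 56.6%, and 7 of the 11 relatives called higher that had a window held them. For each member the match nearest its start that had 10 bases on both sides is printed in the direction in which it reads GAGGAA, with the match in capitals.
Cd33 (chr7:43533382-43533407, minus strand): agtggaatggGAGGAAgccacaaaga
Siglece (chr7:43660182-43660207, plus strand): gcaaggccctGAGGAAgccccagcgg
Ceacam1 (chr7:25477722-25477747, minus strand): gaactggaaaGAGGAAtagaaggacg
Ceacam10 (chr7:24777063-24777088, plus strand): gaactggaaaGAGGAAtagaaggacg
Cd177 (chr7:24760488-24760513, minus strand): tcctgcatccGAGGAAcgctggggct
Lilra6 (chr7:3915603-3915628, plus strand): cccacagaaaGAGGAActgccctcct
Pilra (chr5:137836474-137836499, minus strand): aagaaaaataGAGGAAgggaaacaga
Clec7a (chr6:129472860-129472885, minus strand): acaggatctaGAGGAAaaaagggaaa
Sema4a (chr3:88461329-88461354, plus strand): ggtgaatataGAGGAAagcagccctg
The RefSeq start of Cd33 lies inside the span of its GENCODE gene. The flanks of Ceacam1 and Ceacam10 were the same, and the others differed from these and from each other. A C/EBP half-site pair (TTNNGCAA) was present in 1 window, that of Pilra, against 9.55% of all windows. The Gli motif GACCACCCA was in no member's window and in 0.207% of all windows. The E-box CACGTG, searched for after the sequences had been seen, was in the windows of Ceacam1 and Ceacam10, at -38 and -20 bases, and in 6.04% of all windows. No match overlapped one of another motif. Such matches are letters in a window and were not tied to binding of any factor.

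**Figure D1:**
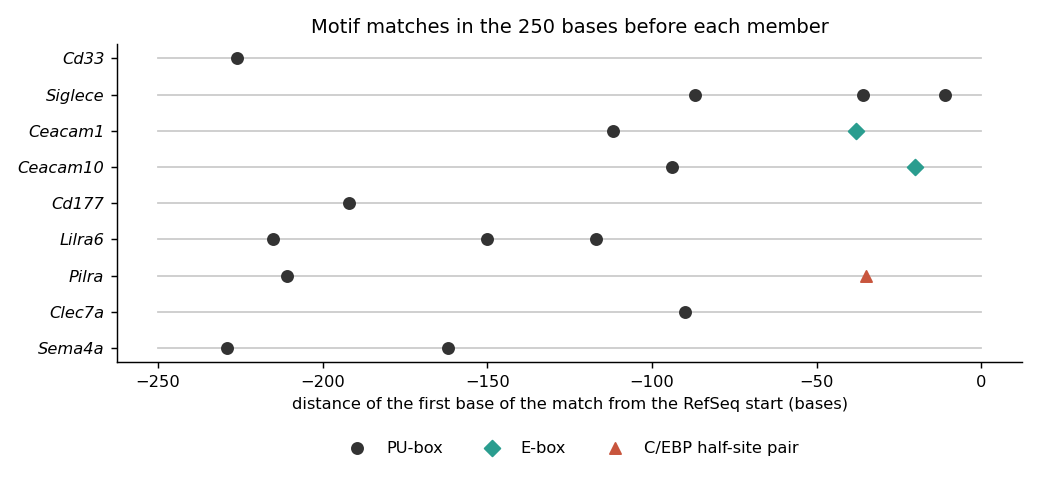
Motif matches on either strand in the 250 bases before the RefSeq start of each member, with the distance of the first base of the match from the start on the x axis and 1 line per gene. Every line carries a PU-box match, and the E-box matches lie at -38 in Ceacam1 and -20 in Ceacam10.

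Total counts were between 24971992 and 46593090 per mouse, so that 3 counts correspond to between 0.0644 and 0.120 CPM (counts relative to library size after TMM scaling), a floor that covers counting error only. DMSO replicate 4 was the shallowest library and stood apart from the rest, with Spearman's rho across genes (which are not independent) of 0.834 to 0.883 to the other libraries, against 0.879 to 0.955 among those. Cartilage genes were abundant, with Col2a1, the main collagen of cartilage, at 53695 ± 15452 CPM with DMSO and 26432 ± 10027 with SAG (SD, n = 4 each). Pthlh, whose expression the reporter marks, was at 18.5 ± 3.15 and 23.8 ± 4.78 CPM and did not pass (adjusted p = 0.606, edgeR). The study reported a slight, significant decrease of Pthlh with SAG after scaling to GAPDH, which is a different measure. Nt5e, which encodes CD73, was at 228 ± 47.8 and 159 ± 12.5 CPM, whereas Ptprc, which encodes the leukocyte antigen CD45, was at 272 ± 95.6 and 651 ± 131 CPM. In a bulk of sorted cells, fewer cells of a type and less RNA per cell cannot be told apart.

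Of the 9 members, 8 were higher in every SAG mouse than in any DMSO mouse, a separation that 7.90% of all genes tested showed. Fitting all 15421 genes by edgeR's quasi-likelihood method put the same 8 past the threshold of 0.05 for adjusted p, as it did for 2.62% of genes in the higher and 0.266% in the lower direction, and nothing is read from this count because the contrast chose the genes. It was 4 without DMSO replicate 2 and 5 without DMSO replicate 3, SAG replicate 2, or SAG replicate 4. The log2 fold changes of these 8 ran from 1.52 to 2.57, and the median over the 9 was 1.76, beside -0.08 over all genes tested. Clec7a was the member whose groups overlapped.

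**Figure D2:**
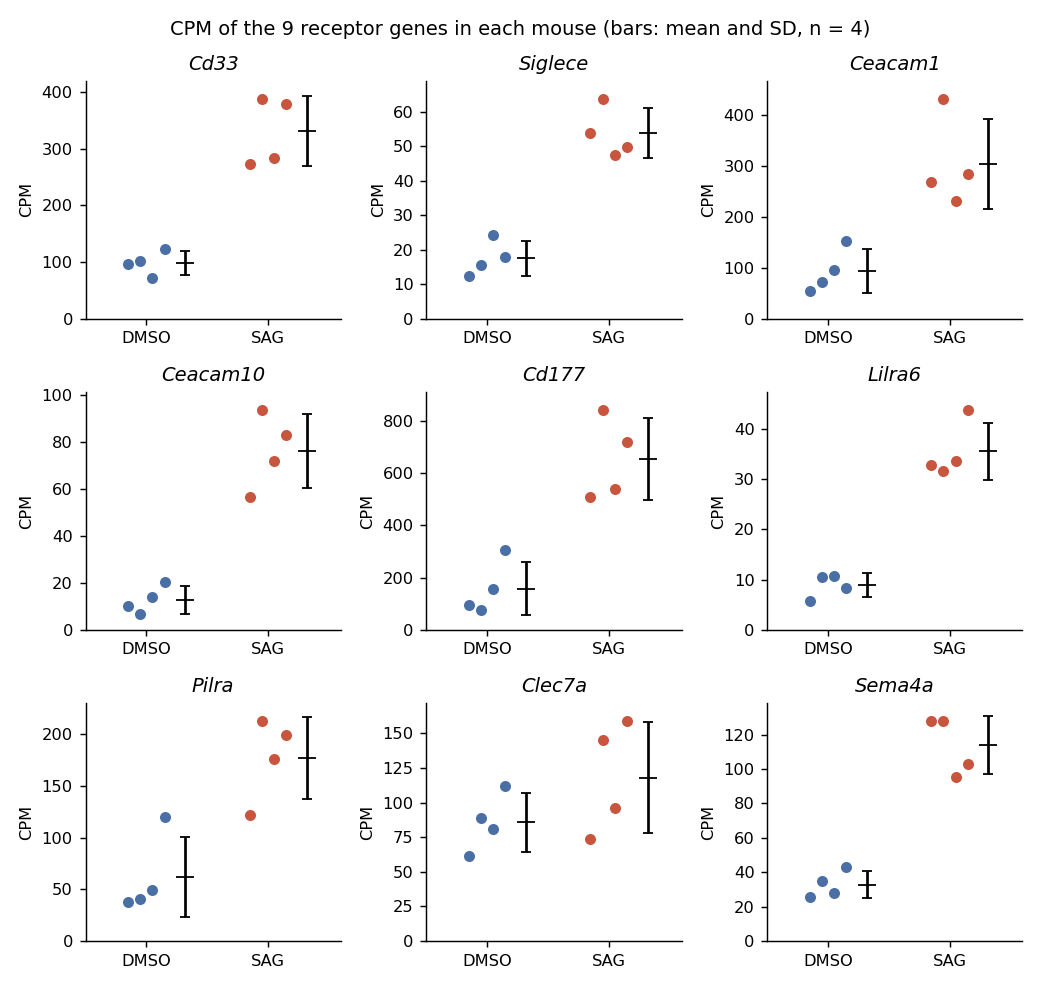
CPM of each member in each mouse on linear axes that start at 0, with the mean and SD of the 4 mice of each group beside the points. The points of the 2 groups are apart in every panel except that of Clec7a, and in Pilra the highest DMSO mouse (120 CPM) lies just under the lowest SAG mouse (122 CPM).

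Among the sialic acid-binding receptors, Cd33 was at 95.6, 101, 71.7, and 123 CPM in DMSO replicates 1 to 4 and at 272, 388, 284, and 379 CPM in SAG replicates 1 to 4. The lowest SAG mouse was 2.21 times the highest DMSO mouse. The log2 fold change was 1.76 (SE 0.21), or 3.39-fold. Siglece, which encodes an ITIM-bearing Siglec of neutrophils and macrophages, was at 12.4, 15.5, 24.4, and 17.8 CPM with DMSO and at 53.8, 63.8, 47.5, and 49.9 CPM with SAG. Its groups were apart by a factor of 1.95, and its log2 fold change was 1.62 (SE 0.27), or 3.07-fold. The ratio of Cd33 to Siglece was 6.01 ± 2.11 with DMSO and 6.17 ± 1.05 with SAG (SD, n = 4 each).

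Ceacam1, an adhesion receptor of granulocytes and epithelia whose long form carries ITIMs, was at 54.7, 72.1, 94.9, and 153 CPM with DMSO and at 268, 433, 232, and 285 CPM with SAG. DMSO replicate 4 was the highest of its group and SAG replicate 2 of the other. The log2 fold change was 1.70 (SE 0.32), and 2.07 without DMSO replicate 4. Ceacam10 was at 9.93, 6.85, 14.1, and 20.4 CPM with DMSO and at 56.5, 93.7, 71.8, and 82.8 CPM with SAG. Its lowest SAG mouse was 2.76 times its highest DMSO mouse, and its log2 fold change of 2.57 (SE 0.35), or 5.95-fold, was the largest of the 9. The ratio of Ceacam1 to Ceacam10 was between 5.51 and 10.5 in the DMSO mice and between 3.23 and 4.75 in the SAG mice.

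Cd177, the neighbor of Ceacam10, was the most abundant member, at 96.6, 74.3, 156, and 304 CPM with DMSO and at 510, 843, 538, and 720 CPM with SAG. Its DMSO mice spread by a factor of 4.09, the widest of the members, and DMSO replicate 4 was again the highest. The log2 fold change was 2.05 (SE 0.40), or 4.14-fold, and 2.61 without that mouse. The ratio of Cd177 to Ceacam10 was between 9.73 and 14.9 in the DMSO mice and between 7.50 and 9.03 in the SAG mice.

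Lilra6, the activating receptor, was the least abundant member, at 5.81, 10.6, 10.8, and 8.28 CPM with DMSO and at 32.8, 31.7, 33.7, and 43.8 CPM with SAG. The lowest SAG mouse was 2.92 times the highest DMSO mouse, the widest gap of the 9, and the log2 fold change was 2.00 (SE 0.31). Pilra, the inhibitory member of the paired PILR receptors, was at 37.4, 40.2, 49.5, and 120 CPM with DMSO and at 122, 213, 176, and 199 CPM with SAG. The narrow gap of a factor of 1.02 rests on DMSO replicate 4. Without it the highest DMSO mouse was at 49.5 CPM, and the log2 fold change was 2.09 in place of 1.52 (SE 0.36).

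Sema4a was at 25.3, 34.9, 27.8, and 42.9 CPM with DMSO and at 128, 128, 95.1, and 103 CPM with SAG, which gave a log2 fold change of 1.80 (SE 0.22), or 3.47-fold. Clec7a was at 61.2, 88.5, 80.6, and 112 CPM with DMSO and at 73.4, 145, 96.1, and 159 CPM with SAG. SAG replicates 1 and 3 lay within the range of the DMSO mice and SAG replicates 2 and 4 above it. The log2 fold change of Clec7a was 0.47 (SE 0.27), or 1.38-fold, and 0.65 without DMSO replicate 4. The ratio of Clec7a to Cd33 was 0.889 ± 0.198 with DMSO and 0.350 ± 0.0624 with SAG (SD, n = 4 each). Its groups did not overlap, but the ratio restates the fold changes of 2 genes that this contrast chose.

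The order of the members by level per length was compared as CPM per kb of annotated exon. The length took all annotated exons of a gene together, so exons unused in these cells would lower its value. With DMSO it ran from Cd177 (55.5 ± 36.4) over Clec7a (32.4 ± 7.98), Pilra (20.0 ± 12.6), Ceacam1 (16.1 ± 7.37), Cd33 (12.6 ± 2.70), Siglece (9.48 ± 2.75), Ceacam10 (8.57 ± 3.92), and Sema4a (6.05 ± 1.46) to Lilra6 (2.91 ± 0.772; SD, n = 4 each). Only Sema4a and Lilra6 were neighbors in this order whose mice did not overlap. With SAG, Cd177 (230 ± 55.5 CPM per kb) stood apart from the next gene, Pilra (57.3 ± 12.9), and Ceacam10 was in the fourth place rather than the seventh, at 50.9 ± 10.6. Pilra, Ceacam1, Ceacam10, Clec7a, and Cd33 followed each other with overlapping mice between 57.3 and 42.6 CPM per kb. Siglece (29.1 ± 3.88), Sema4a (17.6 to 23.7 over the 4 mice), and Lilra6 (11.6 ± 1.84) were each apart from the gene above.

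Mice high or low for 1 member were often so for the others. DMSO replicate 4 was the highest DMSO mouse for 7 of the 9, and SAG replicate 2 was the highest SAG mouse for 7. The summed CPM of the 9 was 399, 444, 530, and 901 in DMSO replicates 1 to 4 and 1516, 2340, 1573, and 2022 in SAG replicates 1 to 4. Genes were compared by the root mean square difference of log2 CPM, centred on each gene's mean over the 8 mice. This measure includes the contrast between SAG and DMSO that chose the members, so genes with similar fold changes come out alike. The most alike pairs were Cd33 with Sema4a (0.248) and Ceacam10 with Cd177 (0.277), and the least alike was Ceacam10 with Clec7a (1.178). Among 13884 other genes with a mean count of at least 50, the closest to Cd177 was Ngp, a neutrophil granule gene (0.102), and the closest to Ceacam10 was S100a8, which encodes a calcium-binding protein of neutrophils (0.200). Ceacam1 was closest to Ncf1 (0.104), which encodes a subunit of the phagocyte oxidase. Cd33 and Sema4a had Pygl, the liver-type glycogen phosphorylase, among their 2 closest genes (0.168 and 0.218), and Sema4a was closest to Alox5ap (0.179), a gene of leukotriene synthesis. Siglece was closest to Ampd3, an AMP deaminase gene (0.129). The closest to Lilra6 was Cd101 (0.264), to Pilra Mrgpra2b (0.154), and to Clec7a Tfip11 (0.125), against a median over all genes of 1.24, 1.19, and 0.75.

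Markers of other cell types were examined beside the members. Of 14 neutrophil markers 11 rose with SAG (median log2 fold change 2.01), and their summed level was between 5390 and 15225 CPM in the DMSO mice and between 28944 and 46150 CPM in the SAG mice, with no marker at 0. S100a9 was at 2488 ± 865 and 9970 ± 2601 CPM (adjusted p = 0.0102, edgeR), whereas Mpo and Elane, genes of early granulocyte precursors, were at 559 ± 408 and 738 ± 513 CPM and at 107 ± 85.5 and 195 ± 156 CPM (SD, n = 4 each) and did not pass the test. Of 10 monocyte and macrophage markers 0 passed (1 at an unadjusted p under 0.05, 1 by DESeq2, and 1 by voom), with a median of 0.23 and sums of 337 to 679 and 541 to 829 CPM. The 11 neutrophil calls were 7 without DMSO replicate 2 or SAG replicate 4 and 4 without DMSO replicate 3. Of 10 chondrocyte markers 0 passed (10 were lower at an unadjusted p under 0.05, 6 by DESeq2, 8 by voom, and 8 by edgeR without DMSO replicate 4), with a median of -1.03. Of the sort and resting zone genes Ptprc rose with a log2 fold change of 1.26 (adjusted p = 0.0255, edgeR). This call held without DMSO replicate 4 or SAG replicate 1 and was lost without any other mouse. Nt5e, with every SAG mouse below every DMSO mouse, and Sfrp5 were lower at an unadjusted p under 0.05 (edgeR). DESeq2, voom, and edgeR without DMSO replicate 4 each called 1 gene of this list lower. Of the 5 T and NK cell, 7 erythroid, 5 endothelial, and 6 osteoblast markers tested 0 passed. At an unadjusted p under 0.05, 1 T and NK cell marker was higher, and 1 of these and 1 osteoblast marker were lower, and DESeq2 and voom called 0 apart from 1 osteoblast marker that DESeq2 called lower.

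Set against the mean log2 CPM of the 14 neutrophil markers in the same mouse, 7 members had overlapping groups. With 4 mice a group, such overlap does not show that a member was unchanged relative to these markers. Cd33 lay at -1.69 ± 0.74 relative to that mean with DMSO and at -1.84 ± 0.11 with SAG, a difference of -0.16 in place of 1.77 (SD, n = 4 each). The difference was between -0.27 and 0.31 for Siglece, Ceacam1, Cd177, Lilra6, Pilra, and Sema4a as well, and the mice of both groups overlapped for each of these 7. Ceacam10 lay at -4.70 ± 0.15 and -3.97 ± 0.20, a difference of 0.73 without overlap. Clec7a lay at -1.89 ± 0.58 and -3.37 ± 0.37, a difference of -1.49 without overlap. The neutrophil mean itself was higher by 1.92 with SAG, so any gene without a change would fall relative to it. How many of all genes were apart in this way was not counted. The mean of the monocyte and macrophage markers differed by 0.32, and relative to it Clec7a differed by 0.11 and the other members by 1.33 to 2.34. The part of the neutrophil markers' rise in the members' fold changes was not tested.

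**Figure D3:**
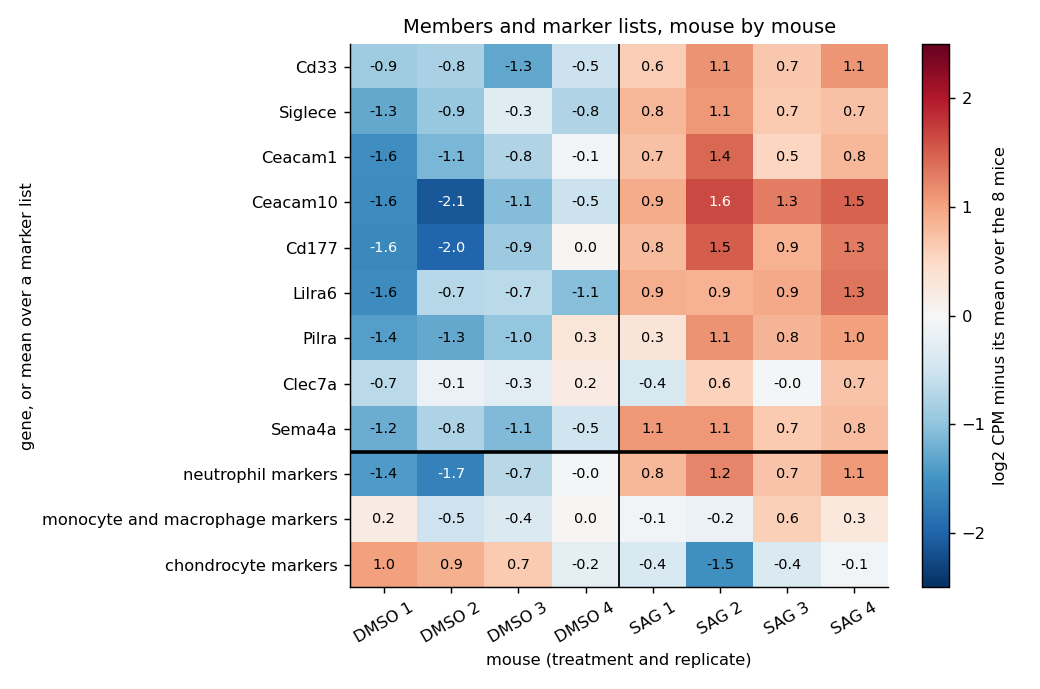
Log2 CPM minus its mean over the 8 mice for the members (above the thick line) and the mean over 3 marker lists (below it), with 1 column per mouse and the values printed in the cells. The neutrophil row has the same sign as 8 member rows in DMSO replicates 1 to 3 and in all SAG mice, whereas the monocyte and macrophage row does not separate the groups.

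The families of the members were counted with lists of related genes that are no members. Of 66 related genes tested, 13 rose with SAG, 0 fell, and 53 did not pass, with a median log2 fold change of 0.78, beside 2.62% called higher and 0.266% called lower over all genes. The count of 13 was 8 without DMSO replicate 1, 1 without DMSO replicate 2, 4 without DMSO replicate 3, 23 without DMSO replicate 4, 7 without SAG replicate 2, and 4 without SAG replicate 4. Pilrb1, Clec4e, Clec4d, Plaur, Ly6g, and Cd300lf, which edgeR did not call, were called higher by DESeq2, by voom, and by edgeR without DMSO replicate 4. For the genes that fell, 4 had an unadjusted p under 0.05, DESeq2 called 1, and voom called 0.

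The other Siglecs had fold changes on both sides of 0. None of the 6 other Siglecs tested passed in either direction by edgeR, DESeq2, or voom (1 was lower at an unadjusted p under 0.05), and their median was -0.37. Siglecf, the Siglec of eosinophils, was at 37.0 ± 19.4 CPM with DMSO and 35.0 ± 25.1 with SAG, and the B cell Siglecs Siglecg and Cd22 were at 39.7 ± 29.9 and 22.4 ± 9.32 CPM and at 21.5 ± 19.5 and 7.66 ± 0.902 CPM (SD, n = 4 each). Siglec1, the sialoadhesin of macrophages, was at 12.3 ± 4.34 and 7.72 ± 5.58 CPM. The other CEACAM genes were low, with a summed level of at most 7.53 CPM in any mouse, and 0 of the 4 tested passed (0 at an unadjusted p under 0.05, 0 by DESeq2, and 0 by voom). Ceacam2, the close copy of Ceacam1, reached at most 0.523 CPM.

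Of 5 leukocyte Ig-like and PIR genes tested, 2 rose. Pirb, the ITIM-bearing counterpart of the PIR-A receptors, was at 106 ± 14.9 CPM with DMSO and 267 ± 64.7 with SAG, a log2 fold change of 1.33 (SE 0.21, adjusted p = 0.0108, edgeR). Pira2 was at 11.4 ± 2.69 and 32.2 ± 9.61 CPM, or 1.50 (SE 0.33, adjusted p = 0.0323). Without DMSO replicate 2 neither was called, and Pira2 kept its call only without DMSO replicate 4 or SAG replicate 1. Lilrb4a and Lilr4b were at 343 ± 112 and 658 ± 215 CPM and at 348 ± 103 and 675 ± 190 CPM. Neither passed by edgeR (adjusted p = 0.112 and 0.0836), but both were called higher by DESeq2, by voom, and by edgeR without DMSO replicate 4. Both activating PILR genes had every SAG mouse above every DMSO mouse, and Pilrb2, with a log2 fold change of 1.83 (SE 0.33, adjusted p = 0.0160), was called whereas Pilrb1, with 1.50 (SE 0.41, adjusted p = 0.0750), was not. Pilrb2 lost its call without DMSO replicate 2, SAG replicate 2, or SAG replicate 4.

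Of 18 myeloid C-type lectins tested, 3 rose. Clec4a2, an ITIM-bearing lectin, had a log2 fold change of 2.17 (SE 0.36), Clec5a, which signals through the adaptor DAP12, one of 1.86 (SE 0.29), and Clec12a, an inhibitory lectin, one of 1.55 (SE 0.28), with edgeR adjusted p of 0.0130, 0.0108, and 0.0150. Clec4a2 lost its call without DMSO replicate 2 or SAG replicate 4, Clec5a without DMSO replicate 3, and Clec12a without DMSO replicate 2. Clec4e, which encodes the mycobacterial glycolipid receptor Mincle, was at 131 ± 61.9 and 335 ± 99.9 CPM (adjusted p = 0.0701), and Clec4d, its partner, at 59.1 ± 16.3 and 106 ± 21.8 CPM (adjusted p = 0.0893). Of 8 Ly6/uPAR genes, the family of Cd177, Ly6c2 rose with a log2 fold change of 1.48 (SE 0.35, adjusted p = 0.0452), a call that held without DMSO replicate 4 and was lost without any other mouse. The urokinase receptor gene Plaur was at 274 ± 103 and 573 ± 102 CPM (adjusted p = 0.0543). Ly6g, the neutrophil antigen gene, was at 11.5 ± 14.1 and 53.5 ± 14.7 CPM (adjusted p = 0.116), with every SAG mouse above every DMSO mouse.

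Of the 5 other class 4 semaphorins, Sema4d rose, from 84.4 ± 15.6 to 200 ± 57.6 CPM (log2 fold change 1.25, SE 0.24, adjusted p = 0.0208), and held without DMSO replicate 4 or SAG replicate 1 but not without any other mouse. Sema4b and Sema4c were at 28.0 ± 16.3 and 15.6 ± 4.16 CPM and at 25.5 ± 11.8 and 11.9 ± 4.67 CPM and did not pass. Of 18 CD300, TREM, SIRP, and CD200 receptor genes, 5 rose. Trem3 had the largest log2 fold change of these (2.49, SE 0.42), followed by Cd300c2 (1.55, SE 0.31), Cd300lb (1.53, SE 0.27), Cd300ld (1.23, SE 0.23), and Sirpa (1.23, SE 0.20), the inhibitory receptor for CD47. Their edgeR adjusted p were 0.0132, 0.0240, 0.0143, 0.0188, and 0.0128, and the call of Cd300c2 held without DMSO replicate 4 and was lost without any other mouse. Trem3 and Cd300lb lost their calls without DMSO replicate 2, DMSO replicate 3, or SAG replicate 4, Sirpa without DMSO replicate 2 or DMSO replicate 3, and Cd300ld without any mouse but DMSO replicate 4, SAG replicate 1, or SAG replicate 3. Cd300lf, at 143 ± 56.4 and 288 ± 56.9 CPM, did not pass (adjusted p = 0.0799).

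**Figure D4:**
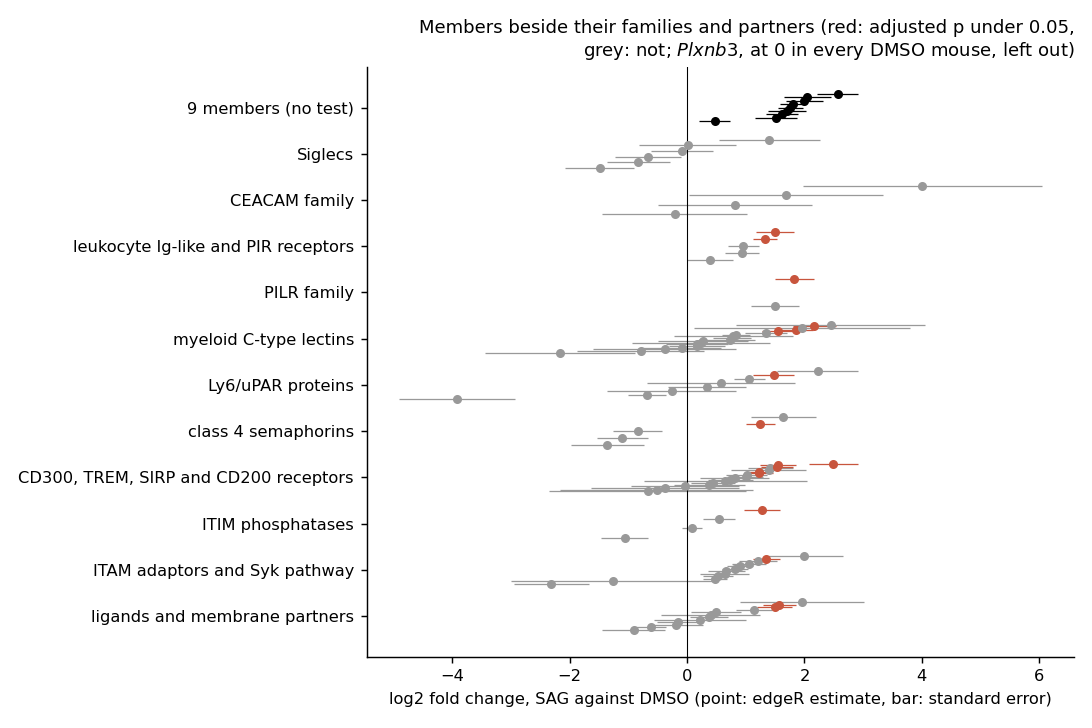
Fitted log2 fold changes of SAG against DMSO, with standard errors as bars (1 point per gene). The 9 members (black) are beside the tested genes of 8 related families and 3 lists of signaling partners. The partner Plxnb3, at 0 in every DMSO mouse (log2 fold change 8.56, adjusted p = 0.0573, edgeR), is left out. Red points passed an adjusted p of 0.05, which 13 related and 4 partner genes did, and the Siglec and CEACAM rows hold no red point.

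The signaling partners of the members were counted in the same way. Of 29 tested, 4 rose, 0 fell (3 at an unadjusted p under 0.05, 1 by DESeq2, 0 by voom), and 25 did not pass, with a median of 0.55. The count of 4 was 2 without DMSO replicate 1 or SAG replicate 2, 0 without DMSO replicate 2, DMSO replicate 3, or SAG replicate 4, and 12 without DMSO replicate 4. Ptpn6, which encodes SHP-1, the phosphatase that ITIM receptors recruit, was at 326 ± 146 CPM with DMSO and 789 ± 190 with SAG, a log2 fold change of 1.28 (SE 0.31). Its edgeR adjusted p of 0.04996 lay at the threshold, and the call was lost without any mouse other than DMSO replicate 4. Ptpn11, the gene of SHP-2, was at 163 ± 22.5 and 172 ± 20.3 CPM, and the lipid phosphatase gene Inpp5d at 140 ± 53.5 and 206 ± 48.1 CPM (SD, n = 4 each), which voom and edgeR without DMSO replicate 4 called higher.

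Fcer1g, the FcRγ adaptor with which activating receptors such as LILRA6 pair, rose from 140 ± 39.6 to 356 ± 77.9 CPM (log2 fold change 1.35, SE 0.23, adjusted p = 0.0140). Of the 12 genes of the ITAM and Syk pathway it was the only one that edgeR called, and before adjustment 8 had a p under 0.05 in the higher and 1 in the lower direction. DESeq2 called 6 higher and 1 lower, voom 5 higher, and edgeR without DMSO replicate 4 6 higher. Tyrobp, the DAP12 adaptor, was at 131 ± 71.9 and 302 ± 66.3 CPM (adjusted p = 0.0791), Syk at 193 ± 84.5 and 308 ± 90.5 CPM, and Card9, which acts after dectin-1 and Syk, at 28.3 ± 5.89 and 58.5 ± 20.3 CPM (adjusted p = 0.0806). Among ligands and membrane partners, Itgam and Itgb2, the chains of the integrin Mac-1, rose with log2 fold changes of 1.57 (SE 0.28, adjusted p = 0.0148) and 1.49 (SE 0.29, adjusted p = 0.0188). Fcer1g, Itgam, and Itgb2 lost their calls without DMSO replicate 2, DMSO replicate 3, or SAG replicate 4, and Itgb2 also without DMSO replicate 1 or SAG replicate 2. Pecam1, the endothelial and leukocyte partner of CD177, was at 41.3 ± 21.5 and 36.3 ± 14.6 CPM, and Prtn3, the gene of proteinase 3, at 34.9 ± 40.7 and 40.7 ± 41.1 CPM. The plexin genes Plxnb2 and Plxnd1 were at 146 ± 34.1 and 95.1 ± 29.1 CPM and at 50.6 ± 13.3 and 65.2 ± 28.8 CPM and did not pass.

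Some members share sequence with other genes, which bears on counts assigned from short reads. Of the distinct words of 31 bases in the annotated transcripts of Lilra6, 49.6% also occurred in other genes, 33.5% in Pirb. For Ceacam1 the share was 37.6%, nearly all of it (36.2% of its words) in Ceacam2, which was itself at 0.523 CPM or less in these mice. For Pilra it was 28.5%, with 14.0% in Zcwpw1 on the opposite strand, and for Cd177 6.93%. Words were matched on either strand, and whether the counting kept reads of opposite strands apart is not known. Ceacam10 shared 5.29%, of which 4.69% lay in Ceacam1, and the other members at most 1.35%. Levels of Lilra6 and Pilra may therefore hold reads of these other genes, and levels of Pirb, Pira2, Pilrb1, and Pilrb2 may hold reads of these members.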

How the data were processed

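The deposited table, made by the authors, holds unnormalized counts by gene symbol for 4 DMSO and 4 SAG mice, with whole numbers throughout. The submitters' processing notes name kallisto, DESeq2, and GRCm38, without versions. Kits for low RNA input and stranded total RNA libraries were used. In edgeR 4.0.16 (R 4.3.3), filterByExpr kept 15421 of 16536 genes, and after TMM scaling the groups were compared by the quasi-likelihood test in its robust form, adjusted by Benjamini-Hochberg over all genes tested (threshold 0.05, 2-sided, no covariate). A prior count of 2 was added for log2 CPM of single mice. P-values measure the spread between mice. DESeq2 1.42.0 and limma 3.58.1 (voom), other scalings and filters, a replicate block, and leaving out each mouse were alternatives, and the fits were tested on simulated data. Positions and exon lengths came from GENCODE M21, and sequences from RefSeq (GRCm38.p6). Named genes were the 9 members, list genes that passed, up to 4 of each list with the highest mean CPM, other list genes where a comparison used them, and up to 2 genes per member with the most similar pattern. The members, lists, and motifs were chosen with earlier results of these data known. Protein sequences were not used here. 1 of the marker lists is not reported here.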

Additional observations from a re-analysis of the deposited data

Results flagged for a closer look

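The distance of the most extreme of 4 mice from the next was taken as a share of its group's range and compared with Dixon's critical value at the 95% level, for the 9 members, their sum, and the neutrophil and the monocyte and macrophage marker means. Of 24 groups examined 2 exceeded it, and about 1.2 would by chance. Pilra in DMSO replicate 4 was at 120 CPM, with the next DMSO mouse at 49.5 CPM (ratio 0.853). Lilra6 in SAG replicate 4 was at 43.8 CPM, with the next SAG mouse at 33.7 CPM (ratio 0.835).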

How the results depend on the processing

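The log2 fold changes of the 9 members kept their sign and stayed within 1 SD of mice under all 15 alternatives (Cd33 1.61 to 1.92, Siglece 1.48 to 1.79, Ceacam1 1.48 to 2.07, Ceacam10 2.37 to 2.95, Cd177 1.82 to 2.61, Lilra6 1.84 to 2.10, Pilra 1.35 to 2.09, Clec7a 0.30 to 0.65, Sema4a 1.69 to 1.98). Counts of calls were less stable. Leaving out 1 mouse gave 80 to 1017 genes higher and 4 to 343 lower over the whole table (404 and 41 with all mice), 1 to 23 related genes higher (13), 0 to 12 partners higher (4), 0 related genes or partners lower, and 4 to 8 members (8). DESeq2 called 812 genes higher and 413 lower, 23 related genes and 10 partners higher, and 1 related gene (Ly6d) and 1 partner (Blnk) lower. Voom called 995 higher and 398 lower, with 22 related genes and 11 partners higher. With at least 10 counts in every sample, 87 genes were lower, 7 partners were higher, and 1 related gene, Ly6d, was lower. The cause was not tested. Correlations of same-numbered mice, after group means were subtracted, were between 0.0102 and 0.120. Of 4 DMSO mice, 2 correlated best with their own number. The replicate numbers come from the sample titles, whereas the deposited row labels run on from the DMSO to the SAG mice without repeating a number. With 4 mice a group, the correlations do not settle whether replicate numbers pair the mice. A replicate block gave 334 genes higher and 18 lower, with 15 related genes, 5 partners, and 8 members higher. With a common dispersion of 0.466 and 4 mice a group, genes that did not pass were not shown to be unchanged.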
